A study of Mus musculus with 18 samples.

Results

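Gene expression was compared between SOD1 mutant and wildtype facial motor neurons, cells of the brainstem, in 6 of the study's 18 mouse samples. Membership follows the labels alone: 3 arrays are from facial motor neurons of SOD1 mutant mice and 3 from facial motor neurons of wildtype mice. The other 12 arrays are 3 of each genotype from spinal motor neurons and 3 of each genotype from ventral spinal cord tissue. RNA of every sample went through a T7-based linear amplification and was read on an Affymetrix mouse expression array. Titles carry the mark D60 in every group, which the labels do not explain. The labels name no SOD1 allele, no age, no sex, no batch and no method for picking the motor neurons. They do not tie samples to animals, so a p-value here reflects the spread among these arrays alone, part of which may be technical. The comparison asks what differs between the genotypes in cranial motor neurons, away from the spinal cord.

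Facial motor neurons drive the muscles of the face, use acetylcholine as their transmitter, and derive from the hindbrain rather than from the cord. Mutant SOD1, a cytosolic superoxide dismutase, causes an inherited form of amyotrophic lateral sclerosis (ALS). The mutant enzyme misfolds, and cells deal with misfolded protein by chaperones, by the ubiquitin-proteasome system, by autophagy and by the unfolded protein response of the endoplasmic reticulum. The gene groups below follow those roles, then excitability, energy supply, RNA handling and the other cell types that picked cells could carry.

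Levels are given as log2(intensity + 16) after quantile normalization, 1 probe set per gene, in the order of replicates 1, 2 and 3. A difference is the mutant mean minus the wildtype mean on that scale, so a difference of 1 means 2 times the intensity, and dim genes have their change understated. A level of 8.79, under which 40% of the genes lie on these arrays, is taken as the edge of background. Folds are left out where a group falls below it. Differences were fitted with limma, and adjusted p stands for the Benjamini-Hochberg value over all 10916 genes tested.

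The arrays matched their label in most motor neuron markers. Isl1, a transcription factor of motor neurons, was at 15.13, 15.39 and 15.20 in wildtype and at 14.97, 15.33 and 15.12 in mutant arrays. Nefl, the light neurofilament chain, was between 17.46 and 17.54 on all 6. Slc18a3, the vesicular acetylcholine transporter, was between 12.20 and 13.56. These 3 are far above background on every array. The probe set of Chat, the enzyme that makes acetylcholine, was dim, between 7.80 and 10.26. Mnx1, a factor of spinal motor neurons, lay below background on all 6 arrays, as did Hoxb1 and Gata3 among the factors of branchial motor neurons. Of that same group Tbx20 was measured at 11.27, 10.45 and 10.96 in wildtype and 11.58, 10.46 and 12.26 in mutant arrays. Mutant replicate 2 lay within the wildtype range for Tbx20 and the other mutant arrays above it.

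Several arrays stood apart. For the actin control transcript, the intensity of the 3' probe set over that of the 5' probe set, which grows as amplified RNA loses its 5' end, was 74.4, 68.8 and 59.7 on the wildtype and 33.8, 59.0 and 26.6 on the mutant arrays. The means were 67.6 ± 7.44 (SD, n = 3) and 39.8 ± 17.0, with an exact two-sided permutation p of 0.1, the smallest that 3 against 3 can give. All 3 wildtype arrays lay above all 3 mutant arrays, and mutant replicate 2 lay next to the wildtype arrays. Wildtype replicate 3 took values between those of replicates 1 and 2 at 64.1% of 18041 bright probe sets, against 16% to 45.1% for the other 17 arrays within their own groups. A mix with 45% of replicate 1 and the rest of replicate 2, as linear intensities, matched it with a residual SD of 0.276 (log2). The best mix for the other motor neuron arrays left 0.43 to 0.794. Wildtype replicate 1 was also low in genes of vessels and microglia: Acta2, the smooth muscle actin, was at 4.62 there and at 14.77 and 14.16 on replicates 2 and 3. How far these arrays set the results was not tested, apart from the values without them given beside the results.

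**Figure D1:**
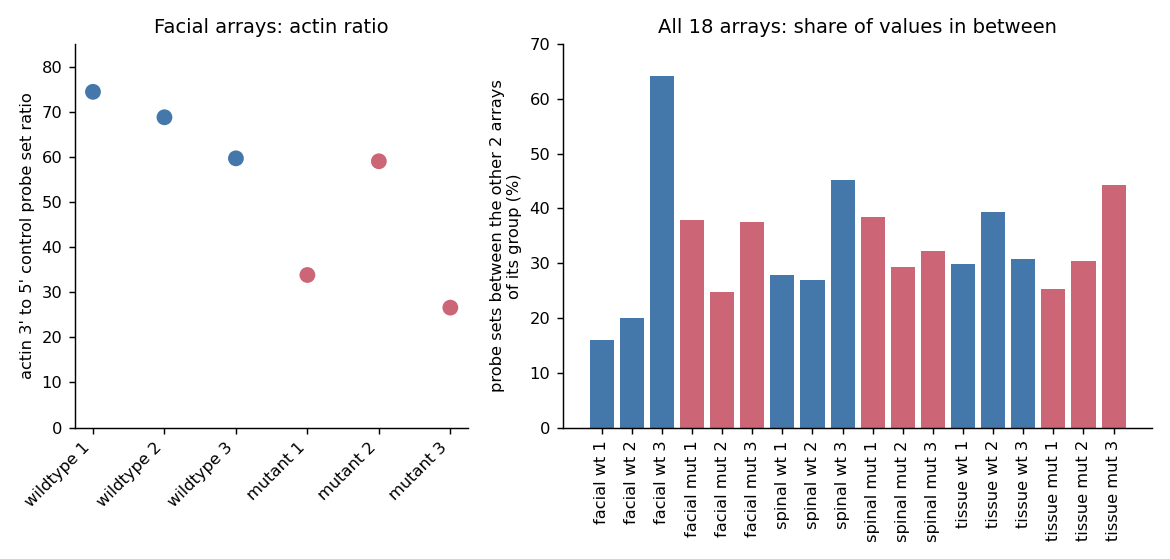
Left, the actin 3' to 5' ratio (y axis, no unit) on each of the 6 facial arrays, wildtype in blue and mutant in red; mutant replicate 2, at 59.0, lies next to the wildtype arrays. Right, the percent of 18041 bright probe sets at which each of the 18 arrays lies between the other 2 arrays of its group; wildtype facial replicate 3 reaches 64.1%.

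No gene passed in the facial comparison: 0 of 10916 had an adjusted p under 0.05 (0%), and the smallest was 0.0872. At an unadjusted p under 0.05 there were 1949 genes (17.9%), 1002 measured higher in the mutant arrays (9.18%) and 947 lower (8.68%). The 3 mutant arrays lay above the 3 wildtype arrays for 1420 genes (13.0%) and below them for 1211 (11.1%). Over all genes the median difference was 0.02, and 52.2% were measured higher. The smallest p-values lay on the lower side: of 84 genes with an unadjusted p under 0.001, 59 were lower and 25 higher.

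These counts moved with single arrays. Without wildtype replicate 3, 0 genes passed, the smallest adjusted p was 0.408, and 1020 genes were below an unadjusted p of 0.05 (9.34%). Without mutant replicate 2, 380 genes passed, 208 higher and 172 lower. Leaving out any 1 of the other 4 arrays also left 0 passing. With the actin ratio as a covariate 0 passed, 901 genes reached an unadjusted p below 0.05 (8.25%), among them 468 of the 1949. Of the 1949, 1884 kept their sign. Mutant replicate 2 was the mutant array nearest to wildtype for 53.4% of the higher and 50.6% of the lower genes among the 1949.

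**Figure D2:**
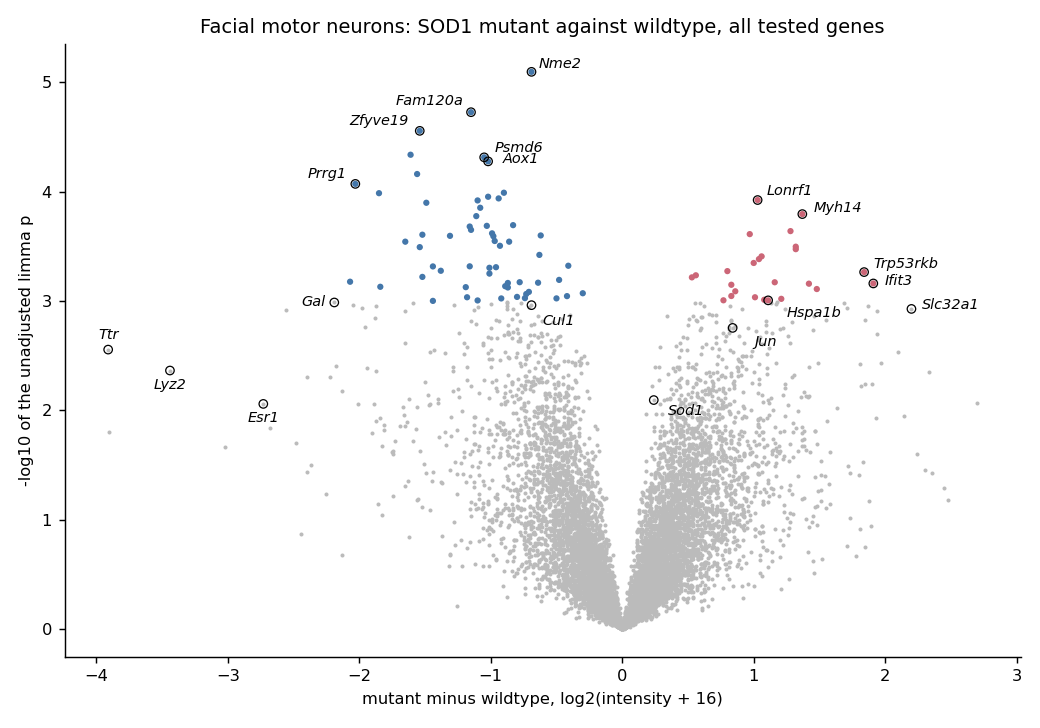
Each point is 1 of 10916 tested genes, with the mutant minus wildtype difference (log2 scale) on the x axis and -log10 of the unadjusted limma p on the y axis. Points in colour are the 84 genes with an unadjusted p under 0.001 (59 lower in blue, 25 higher in red), and open circles mark genes described in the text; no gene passed after adjustment.

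Sod1 itself, the gene named in the genotype, was at 16.57, 16.47 and 16.49 in wildtype and at 16.86, 16.71 and 16.69 in mutant facial motor neurons. The mutant arrays lay above the wildtype arrays, by 0.24 ± 0.07 (SE, 1.18-fold, adjusted p = 0.162). The 3 other bright probe sets named Sod1 differed by 0.06, -0.95 and -0.44. The first of these shares the sign of the main one and the others do not. Whether any of them reads a transgene is not given by the files. The same main probe set differed by 0.46 in spinal motor neurons and by 0.38 in cord tissue.

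The smallest p belonged to Nme2, a nucleoside diphosphate kinase that keeps up GTP and other triphosphates. Nme2 was at 16.41, 16.27 and 16.30 in wildtype and at 15.55, 15.71 and 15.65 in mutant arrays. The groups were far apart, and the difference was -0.69 ± 0.08 (SE, 1.61-fold lower, adjusted p = 0.0872). Fam120a, an RNA-binding scaffold of survival signalling, was at 14.46, 14.14 and 14.36 against 13.23, 12.97 and 13.30. Again the groups did not overlap, and the difference was -1.15 ± 0.15 (2.22-fold lower, adjusted p = 0.0914). Psmd6, a lid subunit of the 19S regulatory particle of the proteasome, was at 15.57, 15.76 and 15.39 against 14.41, 14.83 and 14.32, a difference of -1.05 ± 0.15. Its other bright probe set differed by -0.18.

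Prpf4b, Rbm25, Cnot7 and Pqbp1 were also among the 15 lower genes with the smallest p. Prpf4b, a kinase of the spliceosome, was at 14.35, 14.38 and 14.47 in wildtype and at 13.24, 13.69 and 12.98 in mutant arrays. Its levels were close together in wildtype and scattered in the mutant, and the difference was -1.10 ± 0.18. Rbm25, a splicing factor, was at 12.94, 13.04 and 13.02 against 12.08, 12.10 and 11.99 with each genotype close together. Cnot7, a deadenylase of the CCR4-NOT complex, was at 14.12, 14.55 and 14.39 against 13.53, 13.43 and 13.39. Pqbp1, which binds polyglutamine and splicing factors, was at 14.44, 14.72 and 14.61 against 13.67, 13.11 and 13.75. None of these groups overlapped, but other bright probe sets of Cnot7 gave 0.11 and 0.62, and that of Pqbp1 gave 0.70. Those of Prpf4b gave -0.42, -0.49, 0.47 and -0.48, and those of Rbm25 -0.46, -0.14 and -0.27.

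The remaining lower genes of that rank have varied roles. Aox1, aldehyde oxidase, was at 13.51, 13.78 and 13.61 in wildtype and 12.72, 12.65 and 12.49 in mutant arrays. Zfyve19, a regulator of the last step of cell division, was at 12.21, 12.47 and 12.52 against 10.58, 11.04 and 10.98. Neither gene's groups overlapped, and the mutant means were 2.03-fold and 2.90-fold lower. Prrg1, a membrane protein with a Gla domain, was at 11.35, 11.04 and 11.35 against 8.81, 9.74 and 9.12. Rpgr, a protein of the ciliary base, was at 11.78, 12 and 11.50 against 9.97, 10.37 and 10.27. The groups of both were again apart, with differences of -2.03 ± 0.31 and -1.56 ± 0.23. The other 4 genes of that rank, Sbsn, Efcab12, Ccni and Amy1, differed by -1.61, -1.85, -1.02 and -1.49. Without wildtype replicate 3 the differences of these 15 genes ran from -1.97 to -0.70 and moved by at most 0.13. Their sign could not change there, since the genes were picked for groups that do not overlap. With the actin covariate the sign held in 15, with differences from -1.56 to -0.62. Other bright probe sets exist for 8 of the 15: of 15 such sets, 9 shared the sign and 6 did not.

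Higher in the mutant, the smallest p belonged to Lonrf1, a RING finger protein with a LON protease domain. Lonrf1 was at 12.06, 12.02 and 12.03 in wildtype and at 13.16, 12.83 and 13.21 in mutant arrays. The wildtype arrays were nearly equal, and the difference was 1.03 ± 0.17 (2.04-fold, adjusted p = 0.0914). Myh14, a nonmuscle myosin heavy chain, was at 10.52, 10.55 and 10.45 against 12.01, 11.49 and 12.11. Inppl1, a lipid phosphatase that acts on PI3-kinase products, was at 10.04, 10.04 and 9.98 against 11.34, 11.40 and 11.15. Nyap1, a neuronal adaptor that binds PI3-kinase, was at 10.41, 9.94 and 10.31 against 11.68, 11.27 and 11.68. No mutant array of these 3 genes overlapped the wildtype arrays, and the differences were 1.37 ± 0.23, 1.28 ± 0.22 and 1.32 ± 0.24.

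Zbtb33, a zinc finger protein that binds methylated DNA, was at 10.93, 11.43 and 11.24 in wildtype and at 12.23, 12.29 and 12.19 in mutant arrays. Zbtb18, a transcriptional repressor of brain development, was at 12.95, 13.22 and 13.09 against 13.70, 13.83 and 14.13. Hnrnpul2, an RNA-binding protein, was at 12.70, 12.72 and 13.01 against 13.79, 13.48 and 14.17. The groups were apart for each. Ap5s1, a subunit of adaptor complex 5, differed by 1.32, and Clvs1, a lipid-binding protein of neuronal endosomes, by 0.53. Ggps1, the synthase of geranylgeranyl diphosphate, differed by 0.97 with 1 probe set and by 0.33, -0.74 and -0.54 with its other bright ones. Spata2, Trp53rkb, Dact3 and Ifit3 differed by 1.06, 1.84, 1.16 and 1.91, and Ifit3 is an interferon gene. For the 15 higher genes of that rank, picked in the same way, differences ran from 0.56 to 1.95 without wildtype replicate 3. Their sign could not change there either. With the actin covariate the sign held in 15, and differences ran from 0.30 to 1.94. Other bright probe sets exist for 4 of the 15: 6 of these 9 sets shared the sign.

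Probe sets of one gene often disagreed over the whole comparison. Among the 1949 genes with an unadjusted p under 0.05, 903 have another bright probe set. Of those 1453 sets 63.3% shared the sign of the one used, against 58.3% of 7185 sets over all genes.

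**Figure D3:**
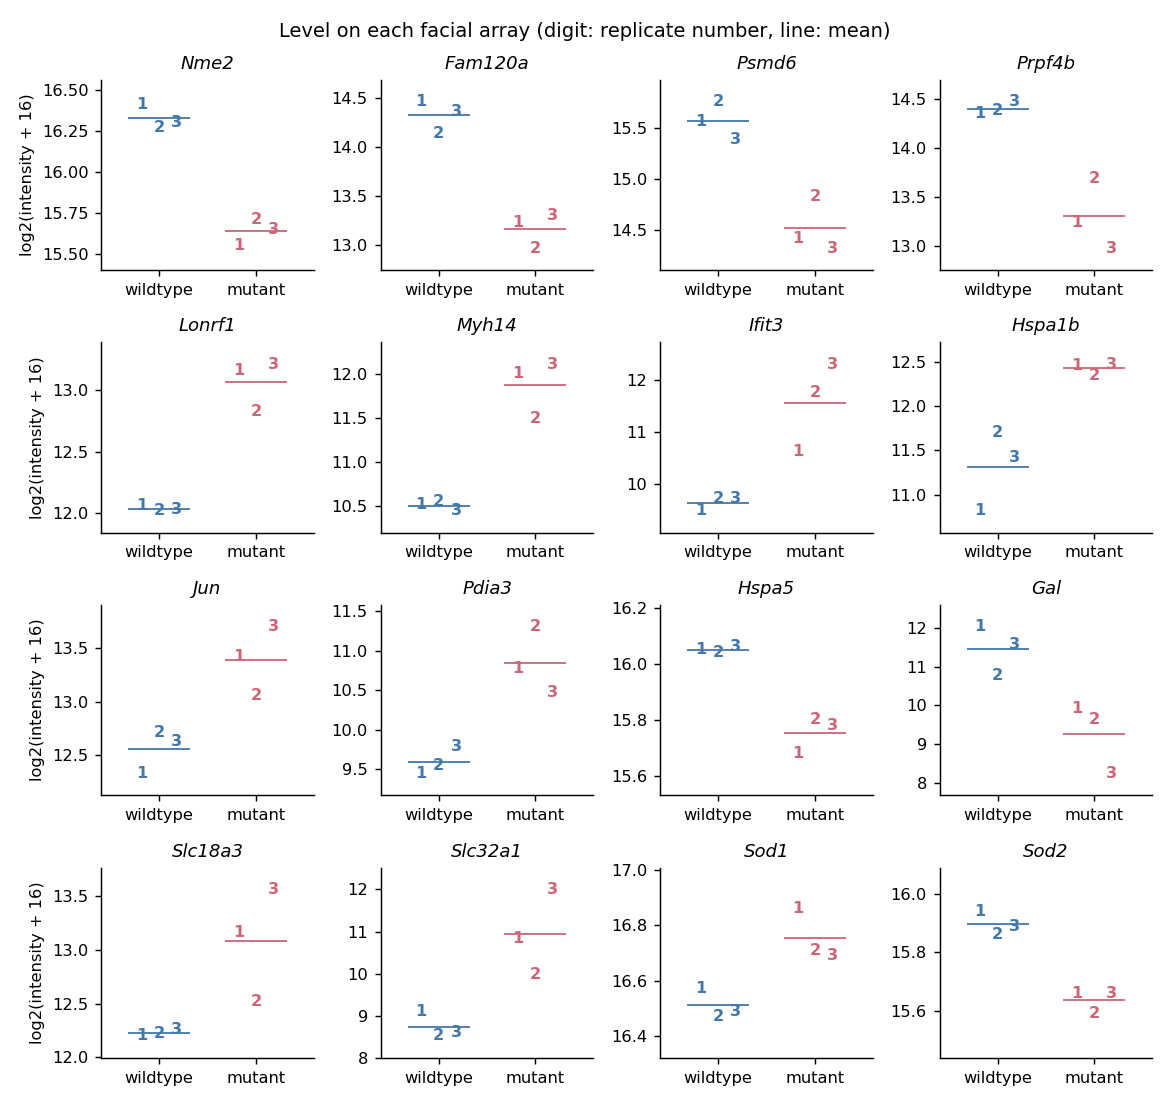
Levels as log2(intensity + 16) on each facial array for 16 genes described in the text, wildtype in blue and mutant in red; the digit is the replicate number and the line the group mean, and each panel has its own y axis that does not start at 0. In all 16 panels the 3 mutant arrays lie to one side of the 3 wildtype arrays, and wildtype replicate 3 often lies between replicates 1 and 2.

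The largest differences in size came from dim genes. Ttr, a carrier of thyroid hormone, was at 11.42, 10.96 and 11.36 in wildtype and at 9.65, 7.60 and 4.77 in mutant arrays. Lyz2, the lysozyme of myeloid cells, was at 9.06, 12.34 and 11.61 against 8.21, 5.81 and 8.68. Esr1, the oestrogen receptor alpha, was at 10.12, 10 and 10.23 against 6.61, 9.57 and 5.98. In each, at least 2 mutant arrays were below background, so the differences of -3.91, -3.44 and -2.73 have no fold, and mutant replicate 2 lay near the wildtype level for Esr1. Col3a1, a collagen of connective tissue, Clec1a and Mmrn2, genes of endothelial cells, and Snai2, a transcription factor of mesenchymal cells, differed by -2.40, -2.56, -2.22 and -2.18. The summed level of the 12 vascular and mural genes ran from 15600 to 84700 in wildtype and from 21300 to 50400 in mutant arrays, with the lowest value on a wildtype array. Its part in these differences was not tested.

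Gal codes for galanin, a neuropeptide that motor neurons raise after axon injury. It was at 12.03, 10.78 and 11.57 in wildtype and at 9.92, 9.64 and 8.24 in mutant arrays. The highest mutant array lay below the lowest wildtype one, with a difference of -2.19 ± 0.47 (adjusted p = 0.114). Slc32a1, the vesicular transporter of GABA and glycine, was on the other side, at 9.10, 8.52 and 8.60 against 10.84, 9.99 and 12. Its mutant arrays were apart from each other, and mutant replicate 2 was nearest to wildtype. The wildtype mean of Slc32a1, 8.74, lay just below background. Gad1, Gad2 and Slc6a5, other markers of inhibitory neurons, overlapped between the genotypes, with mutant ranges of 7.07 to 9.07, 7.24 to 7.67 and 7.95 to 10. Ntm, a neuronal cell adhesion protein, was at 8.05, 9.74 and 9.27 against 10.86, 10.82 and 11.20, and its 2 other bright probe sets gave 0.74 and 1.34. Piga, Zfp449, Mcph1, Ndnf and Mettl2 differed by 2.70, 2.33, 2.10, 1.97 and 1.94, from single wildtype levels of 5.62 to 9.89.

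Heat shock chaperones were mostly measured higher. Of 20 tested, 16 were higher with a median difference of 0.13, against 52.2% and 0.02 over all genes. In 8 the mutant arrays lay above the wildtype arrays and in 2 below, where all genes gave 13.0% and 11.1%. Without wildtype replicate 3, 15 of the 20 were higher. The groups were then apart for 8 upward and 2 downward, where all genes gave 14.6% and 12.2%. Without mutant replicate 2 they were apart for 12 and 2, where all genes gave 23.3% and 20.4%. Hspa1b, an inducible Hsp70, was at 10.82, 11.70 and 11.42 in wildtype and at 12.46, 12.34 and 12.47 in mutant arrays. The mutant arrays were nearly equal, all above the highest wildtype array, by 1.11 ± 0.24 (2.16-fold, adjusted p = 0.114). Its 2 other bright probe sets gave 0.97 and 1.28, though probe sets of Hspa1b can also read its near-identical copy Hspa1a. Bag3, a cochaperone of selective autophagy, was at 14.45, 13.99 and 14.36 against 14.58, 14.46 and 15.07. Hspb6, a small heat shock protein, was at 12.93, 12.74 and 12.82 against 13.27, 13.00 and 13.62. These groups did not overlap, yet both differences came near 0 with the actin covariate, from 0.44 and 0.46 to 0.08 and 0.08. Dnajb2, a neuronal DnaJ protein, and Hsph1, an Hsp110, differed by 0.38 and 0.18. Hspa4, another Hsp110, went the other way, at 14.07, 14.29 and 14.12 against 13.83, 13.79 and 13.57. Its other bright probe set gave 0.16.

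Hspd1, the mitochondrial chaperonin Hsp60, was at 15.14, 15.25 and 15.28 in wildtype and at 15.73, 15.31 and 15.89 in mutant arrays. Mutant replicate 2 lay just above the wildtype arrays, and with the actin covariate the difference of 0.42 became 0.00. The 250 bases before its RefSeq start (build GRCm38.p6, 5′ to 3′ on the gene's strand) are shown because they hold the heat shock element searched for on either strand, GAA, TTC and GAA in this order with any 2 bases between them, in capitals; 2 overlapping matches begin 144 and 139 bases before the start.
Hspd1, chr1:55087933-55088182, minus strand: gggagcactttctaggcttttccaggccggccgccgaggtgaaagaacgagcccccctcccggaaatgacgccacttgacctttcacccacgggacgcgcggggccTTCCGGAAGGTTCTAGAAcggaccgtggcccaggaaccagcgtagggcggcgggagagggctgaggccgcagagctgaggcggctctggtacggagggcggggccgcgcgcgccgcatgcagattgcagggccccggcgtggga
Among the 16 chaperone genes with a promoter in the table, 2 held the element, Hspd1 and Hspe1, against 0.466% of all 32851 promoters. Hspe1 is the cochaperonin of Hspd1 and a head-to-head neighbour of it. Here and for the elements below, a gene counts if any of its promoters matches, while the share is over single promoters. A match describes the letters in the window only.

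Proteasome subunits with groups apart were mostly lower. Of 37 tested, 13 were higher and 24 lower, with a median of -0.06, and the groups were apart for 2 upward and for 10 downward, where all genes gave 13.0% and 11.1%. After Psmd6, the smallest p belonged to the deubiquitinase subunit Psmd14, at 15.96, 16.03 and 16.04 in wildtype and at 15.81, 15.65 and 15.57 in mutant arrays. Psmb3, a beta subunit of the core, was at 17.10, 17.07 and 17.14 against 16.70, 16.95 and 16.52. Psmc6, an ATPase of the base, was at 15.11, 15.12 and 15.14 against 14.62, 14.95 and 14.50. In Psmb3 and Psmc6 the wildtype arrays were within 0.1 of each other, and mutant replicate 2 was nearest to them. The other bright probe sets of Psmc6 gave 0.22 and -0.22. Psmd5, Psmb7 and Psmc3 differed by -0.67, -0.43 and -0.29, and Psmd13, a lid subunit, by 0.43. With the actin covariate the median of the subunits was -0.01. Without wildtype replicate 3 the groups were apart for the same numbers of subunits, 2 and 10, where all genes gave 14.6% and 12.2%. Without mutant replicate 2 they were apart for 3 and 17, where all genes gave 23.3% and 20.4%, the median being -0.13.

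Ubiquitin pathway genes lay on both sides. Of 21 tested, 14 were higher, with groups apart for 4 upward and 4 downward, against 13.0% and 11.1% of all genes. Cul1, the scaffold of SCF ubiquitin ligases, was at 14.45, 14.79 and 14.65 in wildtype and at 13.82, 14.21 and 13.79 in mutant arrays, a difference of -0.69 ± 0.15. Nedd8, the ubiquitin-like protein that activates cullins, was at 15.19, 15.45 and 15.53 against 15.65, 15.89 and 15.94, a difference of 0.43 ± 0.12. These 2 lay on opposite sides with no overlap in either. Usp14, a deubiquitinase of the proteasome, Vcp, an ATPase that extracts ubiquitinated protein, and Rnf13 differed by -0.51, -0.35 and -0.39. The 3 other bright probe sets of Usp14 gave 0.05, 0.16 and 0.54.

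In autophagy, 16 of 23 genes were measured higher, with a median of 0.19, and 6 had mutant arrays above wildtype with 0 below, against 13.0% and 11.1% of all genes. Map1lc3a, an LC3 protein of autophagosomes, was at 16.68, 16.51 and 16.68 in wildtype and at 16.86, 16.90 and 16.98 in mutant arrays. Atg5, which couples LC3 to lipid, was at 12.53, 12.75 and 12.53 against 12.99, 13.29 and 13.23. The arrays were apart for both, by 0.29 ± 0.07 and 0.56 ± 0.16, but the 2 other bright probe sets of Atg5 gave -0.51 and -0.19. Sqstm1, the p62 receptor that ties ubiquitinated cargo to LC3, was at 13.69, 13.79 and 13.54 against 14.10, 13.85 and 14.14, and its other bright probe set gave -1.45. Becn1 and Gabarapl1 differed by 0.48 and 0.46, and Gaa, a lysosomal glucosidase, by -0.59. Left out one at a time, mutant replicate 1 and wildtype replicate 3 brought the median to 0.09 and 0.10, and the common median scaling to 0.11.

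Genes of the unfolded protein response were even in number and split by gene. Of 20 tested, 10 were higher, with a median of -0.02 that was -0.19 with the actin covariate. Hspa5, the Hsp70 of the endoplasmic reticulum known as BiP, was at 16.05, 16.04 and 16.06 in wildtype and at 15.68, 15.80 and 15.78 in mutant arrays. Pdia6, a disulfide isomerase, was at 12.52, 12.98 and 12.87 against 11.71, 12.30 and 11.92. Hsp90b1, the Hsp90 of that compartment, was at 13.47, 13.86 and 13.77 against 13.44, 13.30 and 13.13. All mutant arrays lay below all wildtype arrays in these 3, with differences of -0.29 ± 0.08, -0.81 ± 0.21 and -0.41 ± 0.16. Pdia3, another disulfide isomerase, stood on the other side at 9.45, 9.55 and 9.79 against 10.78, 11.30 and 10.47, 1.26 ± 0.30 higher. Probe sets disagreed for Hspa5, with -0.96 and 0.55, for Hsp90b1, with 0.19, and for Pdia3, with 0.07. Chac1, a glutathione-degrading enzyme under ATF4, differed by -0.46.

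**Figure D4:**
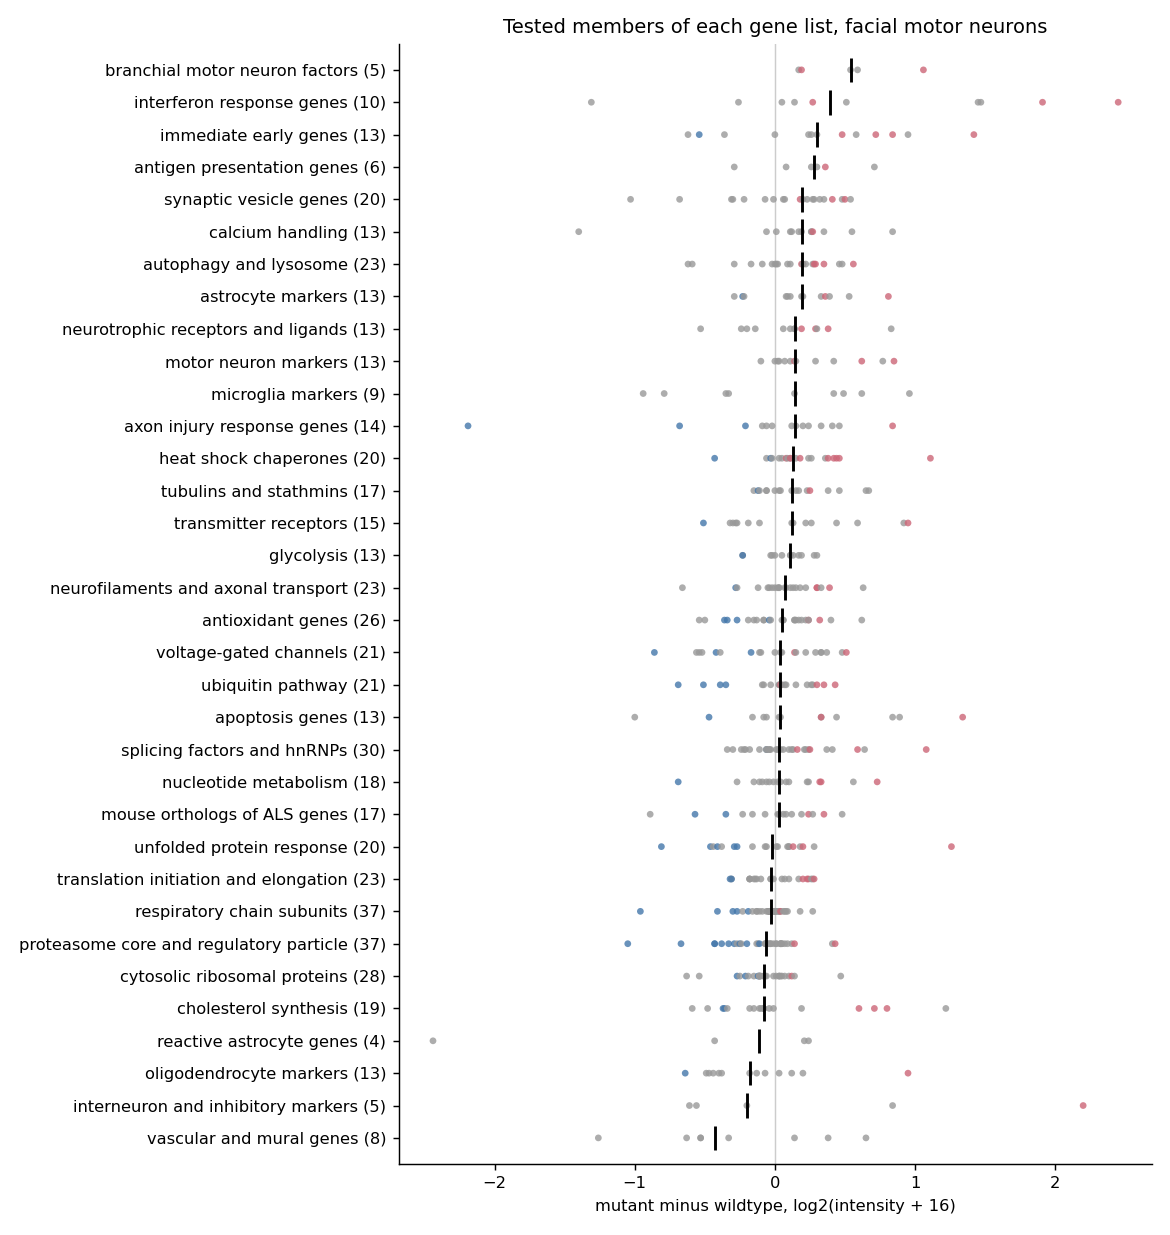
Each point is a tested member of 1 of 34 gene lists (number tested in brackets), with its mutant minus wildtype difference on the log2 scale on the x axis; red points have all 3 mutant arrays above the wildtype arrays, blue points all 3 below, and the black bar is the list's median. Medians run from -0.43 for vascular and mural genes to 0.54 for branchial motor neuron factors, some of which lie below background in wildtype.

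With the actin covariate the median turned from 0.14 to -0.06 for axon injury genes, from 0.12 to -0.05 for tubulins and stathmins, from 0.11 to -0.07 for glycolysis, from 0.04 to -0.10 for channels, from 0.12 to -0.06 for transmitter receptors and from 0.14 to -0.08 for microglia markers. It also turned from 0.03 to -0.16 for mouse orthologs of ALS genes and from 0.04 to -0.04 for the ubiquitin pathway. Splicing factors went from 0.03 to -0.04, translation factors from -0.03 to 0.07 and antioxidant genes from 0.05 to -0.02.

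Immediate early genes, which neurons switch on within minutes of activity or stress, had 9 of 13 tested measured higher, with a median of 0.30. Jun was at 12.33, 12.71 and 12.63 in wildtype and at 13.42, 13.06 and 13.70 in mutant arrays, and its other bright probe set gave 0.96. The mutant arrays lay above the wildtype arrays by 0.84 ± 0.20 (1.79-fold, adjusted p = 0.119). Arc, a synaptic activity gene, was at 8.21, 8.76 and 8.43 against 9.81, 9.87 and 9.99, the wildtype arrays being below background. Fos was at 13.03, 13.52 and 13.39 against 13.65, 13.65 and 14.07. The groups of both were apart, those of Fos by a small margin, with differences of 1.42 ± 0.38 and 0.48 ± 0.18. Jund was lower, at 14.88, 14.56 and 14.80 against 14.37, 14.03 and 14.22. Atf3, an injury-induced factor below the filter, was at 8.75, 8.07 and 6.56 against 9.75, 8.07 and 10.19, named here after its values were seen. The median of these genes was 0.08 with the actin covariate, and leaving out single arrays moved it between 0.12 and 0.57.

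Dusp1, a phosphatase that ends MAP kinase signals, was at 13.10, 13.44 and 13.27 in wildtype and at 14.09, 13.48 and 14.40 in mutant arrays. Mutant replicate 2 lay just above the wildtype range, and the difference of 0.72 came to 0.08 with the actin covariate. Its promoter window is shown because it is 1 of 2 among the 10 with a promoter in the table, beside Btg2, to hold the cyclic AMP response element TGACGTCA, in capitals, 143 bases before the start; 1.55% of all promoters hold it. The CArG box of serum response factor was in 0 of the 10 windows and in 1.47% of all.
Dusp1, chr17:26508473-26508722, minus strand: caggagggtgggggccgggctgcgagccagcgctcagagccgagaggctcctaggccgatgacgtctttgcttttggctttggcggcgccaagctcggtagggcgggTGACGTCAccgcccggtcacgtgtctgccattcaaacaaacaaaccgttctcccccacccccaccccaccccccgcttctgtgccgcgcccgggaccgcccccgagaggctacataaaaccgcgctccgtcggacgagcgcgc

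Interferon response genes had 8 of 10 tested members measured higher, with a median of 0.39, and 3 with groups apart upward and 0 downward, against 13.0% and 11.1% of all genes. Ifit3 was at 9.49, 9.72 and 9.72 in wildtype and at 10.63, 11.75 and 12.30 in mutant arrays, 1.91 ± 0.39 higher (3.77-fold, adjusted p = 0.114). Its wildtype arrays were close together and its mutant arrays spread. Ifit1, a relative of Ifit3 whose protein binds foreign RNA, was at 4.51, 9.29 and 8.83 against 9.54, 9.62 and 10.82. The difference was 2.45, and 0.93 without wildtype replicate 1, with mutant replicate 3 above all other arrays. Ifi27 was at 15.45, 15.34 and 15.38 against 15.67, 15.47 and 15.84. The groups were apart by little, with a difference of 0.27 ± 0.11. Single dim members stood out on mutant replicate 3: Rsad2, Usp18 and Oasl2, chosen after their values were seen, were at 11.76, 11.15 and 12.21 there and at most at 9.42 on the other 2 mutant arrays. The median was 1.11 without wildtype replicate 3 and 0.18 without mutant replicate 3.

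The promoter windows of Ifit3 and Ifit1 are shown because both hold 2 matches to the interferon-stimulated response element searched for on either strand, GAAA and again GAAA with any 2 bases between them, in capitals. In Ifit3 they begin 156 and 122 bases before the start and in Ifit1 104 and 85. Among the 9 members whose promoter is given, 4 held the element, these and Oas1a and Stat2, against 2.98% of all promoters.
Ifit3, chr19:34583279-34583528, plus strand: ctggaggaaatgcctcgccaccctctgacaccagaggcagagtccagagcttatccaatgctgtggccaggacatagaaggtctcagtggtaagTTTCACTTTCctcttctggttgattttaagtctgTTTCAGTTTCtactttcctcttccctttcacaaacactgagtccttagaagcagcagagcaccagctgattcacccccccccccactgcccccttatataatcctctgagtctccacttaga
Ifit1, chr19:34640639-34640888, plus strand: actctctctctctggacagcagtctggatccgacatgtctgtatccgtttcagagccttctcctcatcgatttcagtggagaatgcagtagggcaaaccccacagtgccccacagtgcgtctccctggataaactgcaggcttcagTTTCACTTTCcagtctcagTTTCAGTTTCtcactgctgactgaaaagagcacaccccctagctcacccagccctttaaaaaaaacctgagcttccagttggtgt

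Axon injury genes did not share a direction. Of 14 tested, 8 were higher, with a median of 0.14. Beside Gal, the developmental and regeneration factor Sox11 was lower, at 12.03, 11.37 and 11.76 in wildtype and at 10.82, 11.27 and 11.02 in mutant arrays. Its groups did not overlap, the difference was -0.68 ± 0.24, and its 3 other bright probe sets gave -0.10, -0.43 and -0.77. Jun, which is on this list too, was higher.

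Motor neuron markers and branchial factors were mostly measured higher, 12 of 13 and 5 of 5 tested, with medians of 0.14 and 0.54. Of 8 branchial factors on the array, 5 passed the filter. Among them Gata2 and Hoxb2 had wildtype means of 8.52 each, below background, and mutant means of 9.59 and 9.11. Hoxb2 fell below the filter without mutant replicate 2 or 3. The 5 of 5 and the median of 0.54 rest in part on such members. Slc18a3 was at 12.20, 12.22 and 12.26 in wildtype and at 13.16, 12.52 and 13.56 in mutant arrays. All wildtype arrays were nearly equal and the mutant arrays were above them, by 0.85 ± 0.24 (1.81-fold, adjusted p = 0.152). Slc5a7, the choline transporter, was at 9.60, 9.98 and 9.97 against 10.37, 10.68 and 10.34, with a difference of 0.62. Tns1 was at 13.10, 12.95 and 13.01 against 13.61, 13.01 and 13.71, so mutant replicate 2 lay within the wildtype range. Ret, the receptor subunit for GDNF, differed by 0.19. With the actin covariate the markers' median was -0.03, and Slc18a3 differed by 0.15 and Tns1 by -0.06. In these bulk arrays more or fewer cells of a type and more or less RNA per cell cannot be told apart. The markers' summed level ran from 628000 to 654000 in wildtype and from 629000 to 709000 in mutant arrays.

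Synaptic vesicle genes had 13 of 20 higher, with a median of 0.19 that was -0.08 with the actin covariate. Snap25, a membrane SNARE, was at 16.15, 16.28 and 16.27 in wildtype and at 16.64, 16.30 and 16.98 in mutant arrays. Cplx1, complexin, was at 17.00, 16.94 and 16.91 against 17.13, 17.11 and 17.16. Sv2b, a vesicle glycoprotein, was at 14.28, 14.35 and 14.32 against 14.52, 14.83 and 15.11. The groups were apart in all 3; with the actin covariate Snap25 stood at -0.05, Cplx1 at 0.17 and Sv2b at 0.39. The other bright probe set of Sv2b gave -0.40. Vamp1 differed by 0.27. Without mutant replicate 3 the median of the group was 0.04.

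Axonal transport genes had 16 of 23 higher, with a median of 0.07 that was -0.03 under the common median scaling and -0.11 with the actin covariate. Kif5b, a kinesin heavy chain, was at 14.37, 14.46 and 14.45 in wildtype and at 15.01, 14.71 and 14.74 in mutant arrays. Kif1b, a kinesin of synaptic vesicle precursors, was at 15.21, 15.42 and 15.29 against 15.50, 15.66 and 15.66. Dync1i1, an intermediate chain of dynein, the motor of the opposite direction, was at 14.96, 14.90 and 14.85 against 14.45, 14.67 and 14.76. Both kinesins were apart upward and the dynein chain downward, and Kif3a differed by 0.30. Their other bright probe sets were divided: those of Kif5b gave -0.17, 0.44, -0.59 and 0.68, those of Kif1b -0.16, -0.25, 0.74 and -0.31, and those of Kif3a -0.35, -0.67 and -0.11. Among tubulins and stathmins, 12 of 17 were higher with a median of 0.12. Stmn1, a microtubule-destabilizing phosphoprotein, was at 16.69, 16.69 and 16.61 against 16.98, 16.83 and 16.92.

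Channels, receptors and calcium proteins gave single genes rather than a direction. Scn8a, the main sodium channel of the axon initial segment, was at 13.70, 13.35 and 13.57 in wildtype and at 14.12, 13.70 and 14.33 in mutant arrays, where the lowest mutant array only equalled the highest wildtype one to 2 decimals. Cacna1b, the N-type calcium channel, was at 11.80, 11.11 and 10.92 against 10.63, 9.77 and 10.84. That is a difference of -0.86, and its other bright probe sets gave -0.77 and 1.02. Of 21 channel genes 11 were higher. Gria3, an AMPA receptor subunit, was at 14.46, 14.10 and 14.41 against 14.01, 13.47 and 13.95, with the groups apart and a difference of -0.51 ± 0.17. Grin2b, an NMDA receptor subunit, differed by 0.95 from a wildtype level near background, and 8 of 15 receptors were higher. Calb2, the calcium buffer calretinin, was at 11.55, 10.25 and 11.25 against 10.30, 9.44 and 9.11. Wildtype replicate 2 lay within its mutant range, with a difference of -1.40 ± 0.42. Of 13 calcium handling genes 11 were higher, with a median of 0.19 that was -0.14 with the actin covariate.

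Nuclear-encoded subunits of the respiratory chain were lower in 23 of 37, with a median of -0.03. The groups were apart downward for 5 and upward for 1, against 11.1% and 13.0% of all genes. The downward share was near that of all genes and the upward share below it. Without mutant replicate 2 the groups were apart for 13 downward (35.1%) and 7 upward (18.9%), where all genes gave 20.4% and 23.3%. Ndufa5, a subunit of complex I, was at 16.93, 16.86 and 16.90 in wildtype and at 16.60, 16.64 and 16.55 in mutant arrays. Sdhb, the iron-sulfur subunit of complex II, was at 16.14, 16.20 and 16.19 against 15.91, 15.93 and 15.89. Ndufv1, also of complex I, was at 15.84, 15.65 and 15.81 against 15.28, 15.55 and 15.25. In all 3 the mutant arrays lay below the wildtype arrays, with differences of -0.30 ± 0.06, -0.27 ± 0.07 and -0.41 ± 0.11. Mutant replicate 2 was close to wildtype for Ndufv1, whose other bright probe sets gave -0.72 and 0.19. Ndufv2 and Cox7c differed by -0.19 and -0.96. With the actin covariate Ndufa5 and Sdhb stood at -0.23 and -0.25. Under the common median scaling the median of the group was -0.12.

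Antioxidant genes were balanced, 14 of 26 higher, with a median of 0.05 that became -0.02 under the common median scaling. The manganese dismutase of mitochondria, Sod2, was at 15.94, 15.86 and 15.89 in wildtype and at 15.66, 15.59 and 15.66 in mutant arrays. Gpx1, a glutathione peroxidase, was at 15.26, 15.23 and 15.35 against 15.03, 14.99 and 14.74. Gsta4, which conjugates lipid peroxidation products, was at 14.73, 14.75 and 14.69 against 14.48, 14.39 and 14.28. These 3 lay lower in all mutant arrays while Sod1 lay higher, with differences of -0.27 ± 0.08, -0.36 ± 0.11 and -0.34 ± 0.11. The other bright probe sets of Sod2 gave -0.14 and 0.20.

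Glycolytic enzymes had 9 of 13 higher, with a median of 0.11 that was 0.00 under the common median scaling, and the aldolases Aldoa and Aldoc differed by -0.23 each. In nucleotide metabolism 10 of 18 were higher, the median being 0.03 and 0.00 under the common median scaling. Impdh1, which makes guanine nucleotides, was at 11.77, 12.05 and 12.04 in wildtype and at 12.48, 12.52 and 13.05 in mutant arrays. It lay higher by 0.73 ± 0.20, opposite to the kinase Nme2, and Ckb, brain creatine kinase, was higher by 0.32. Cholesterol synthesis was lower in 14 of 19, with a median of -0.08. Fdft1, squalene synthase, was at 15.78, 15.61 and 15.72 against 15.45, 15.23 and 15.36. Bright Fdft1 and Insig1 were lower, at -0.36 and -0.37, while the dimmer Fdps, Lss and Mvk were higher, at 0.60, 0.80 and 0.71.

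Splicing factors had 17 of 30 higher, median 0.03. U2af1, which reads the 3' splice site, was at 10.67, 11.36 and 11.03 in wildtype and at 12.29, 11.90 and 12.11 in mutant arrays. The difference, 1.08 ± 0.23, had the smallest p of the group. Translation factors had 10 of 23 higher, median -0.03. Eif3c and Eif3a, of the scaffold that loads the small ribosomal subunit, differed by -0.31 and -0.32, and Eif5a by 0.28. The other bright probe sets of Eif3c and Eif3a shared that sign: they gave -0.31, -0.19 and -0.44 and -0.20 and -0.59. Cytosolic ribosomal proteins were lower in 18 of 28, median -0.08, and Rps7 was at 16.51, 16.55 and 16.52 against 16.28, 16.41 and 16.25. That median was 0.17 with the actin covariate. Without mutant replicate 2, 23 of the 28 were lower, median -0.16, and 18 had groups apart downward (64.3%, against 20.4% of all genes).

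Mouse orthologs of ALS genes had 11 of 17 higher, with a median of 0.03 that was -0.04 under the common median scaling. Beside Sod1, Vcp and Sqstm1, the phosphoinositide phosphatase Fig4 was at 13.64, 13.17 and 13.32 in wildtype and at 12.86, 12.89 and 12.68 in mutant arrays. Its groups did not overlap, and the difference was -0.57 ± 0.17. In the apoptosis list, 8 of 13 were higher. Apaf1, the core of the apoptosome, was at 7.87, 9.64 and 9.76 against 10.58, 10.44 and 10.26. Diablo, an inhibitor of caspase inhibitors, was at 12.39, 12.21 and 12.37 against 11.74, 11.97 and 11.87. The groups were apart upward for Apaf1 and downward for Diablo. Neurotrophic receptors and ligands had 9 of 13 higher, median 0.14, with 3 of 13 apart upward against 13.0% of all genes, and 0 of 13 under an unadjusted p of 0.05 against 17.9%.

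Markers of other cell types were present, but not all lay above background. Below it on all 6 arrays were 3 of 14 microglia markers, 2 of 12 vascular and mural genes and 3 of 11 reactive astrocyte genes. Of the oligodendrocyte, astrocyte and interneuron markers, 0 were below it on all 6. Oligodendrocyte markers were bright, with Mbp, a myelin protein, between 16.33 and 16.83, and the summed level of 13 markers ran from 199000 to 277000 in wildtype and from 215000 to 276000 in mutant arrays. Of the 13 tested, 9 were lower, with a median of -0.18 that was 0.25 with the actin covariate and -0.34 without mutant replicate 2. Mag, a myelin adhesion protein, was at 12.09, 12.44 and 12.26 against 11.62, 12.04 and 11.19, while Olig2, a lineage factor, was at 9.29, 10.47 and 10.31 against 10.93, 11.20 and 10.79. They lay on opposite sides with no overlap in either, and with the actin covariate Mag differed by -0.11 and Olig2 by 1.07. Astrocyte markers summed to between 416000 and 486000 in wildtype and between 434000 and 455000 in mutant arrays, and 10 of 13 tested were higher, median 0.19. Fgfr3 was higher by 0.81 ± 0.23 and Ndrg2 by 0.36, and Aldoc and Clu differed by -0.23 and -0.22. Gfap, the filament of reactive astrocytes, did not pass the filter but was at 7.26, 8.33 and 5.96 in wildtype and at 10.54, 10.21 and 9.49 in mutant arrays, chosen after its values were seen. Its wildtype levels all lay below background. Of the 4 reactive astrocyte genes tested, 2 were higher and 2 lower, with a median of -0.11. Lcn2, on that list, differed by -2.44 with overlap between the genotypes. Interneuron markers summed to between 9460 and 12200 in wildtype and between 11100 and 13200 in mutant arrays. Of the 5 tested, 2 were higher, Slc32a1 among them, and 3 lower, with a median of -0.20. Penk, on that list, differed by -0.56, and by -1.13 with the actin covariate.

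Of the 9 microglia markers tested, 0 had arrays of the genotypes apart, where all genes gave 13.0% upward and 11.1% downward. With so few members the count is not read as a result. Their summed level, over 14 genes, ran from 16200 to 33700 in wildtype and from 22600 to 26300 in mutant arrays, and 3 of the 14 were below background on all 6. Ctss, a lysosomal protease, was at 12.61, 12.82 and 12.44 in wildtype and at 12.59, 13.38 and 13.36 in mutant arrays. Csf1r, the receptor on which microglia depend, was at 12.13, 13.53 and 13.16 against 12.93, 12.33 and 12.59. C1qb, of the complement component C1q, was at 10.45, 11.64 and 11.65 against 10.33, 10.53 and 10.50. The genotypes overlapped in all 3. Of 9 tested 5 were higher, with a median of 0.14 that was -0.61 without wildtype replicate 1.

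Against spinal motor neurons of the same genotypes, on other arrays, 0 of 10916 genes differed in genotype effect (0%, limma interaction over 12 arrays, smallest adjusted p 0.219), and 987 had an unadjusted p under 0.05 (9.04%). Over 10438 genes tested in both sites the facial and spinal differences had a Pearson r of 0.19 and a Spearman rho of 0.22 across genes, which are not independent replicates. Of 57 facial genes lower at an unadjusted p under 0.001, 47 were also measured lower in spinal motor neurons, 82.5% against 48.4% of all genes. Of 25 higher ones, 18 were higher there, 72% against 51.6%. The actin ratio differed with genotype in the same direction at both sites. On the spinal arrays it was 56.91, 40.9 and 41.55 in wildtype and 39.11, 27.8 and 25.28 in mutant, without overlap. Its part in the shared signs was not tested. Psmd6 differed by -1.05 in facial and -1.13 in spinal motor neurons, Cnot7 by -0.90 and -0.95, Fam120a by -1.15 and -0.99, and Hspa1b by 1.11 and 1.15. The interaction's smallest p-values included genes with opposite signs at the sites. Col24a1, a fibrillar collagen, was at 10.77, 10.89 and 10.80 in wildtype and 9.16, 9.28 and 9.43 in mutant facial arrays, a difference of -1.52 against 0.75 in spinal motor neurons. Cog1, of the Golgi tethering complex, differed by -1.16 and 0.56, and Ncoa2, a nuclear receptor coactivator, by 0.86 and -0.50.

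For microglia markers, of which 0 passed the interaction after adjustment, values at the sites are set side by side. Their median difference was 0.14 over 9 genes in facial (-0.61 without wildtype replicate 1) and 1.98 over 11 genes in spinal motor neurons. Of 10 members tested for the interaction 9 had the lower effect in facial neurons. Of these 9, 6 had an unadjusted p under 0.05, where 4.38% of all genes had such a p in that direction. Genes entered this fit by their mean over the facial and spinal arrays together. A marker raised in mutant spinal arrays could therefore pass the filter through that group, which favours a lower facial effect. How far the filter set these counts was not tested. Laptm5, a lysosomal membrane protein of immune cells, differed by 0.14 in facial and 2.63 in spinal neurons (interaction -2.48, adjusted p = 0.219). C1qb differed by -0.79 and 2.96, and Csf1r by -0.33 and 1.97. H2-K1, an MHC class I chain, differed by 0.36 and 1.99. All 6 antigen presentation genes tested for the interaction had the lower effect in facial neurons, with a median of -0.81. The same limit of the filter holds for these 6 genes. For the interferon genes the medians were 0.39 and 1.09, and the interaction median was -0.27. Glycolytic enzymes were higher in 13 of 13 in spinal neurons, where 51.5% of all genes were, and in 9 of 13 in facial neurons.

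**Figure D5:**
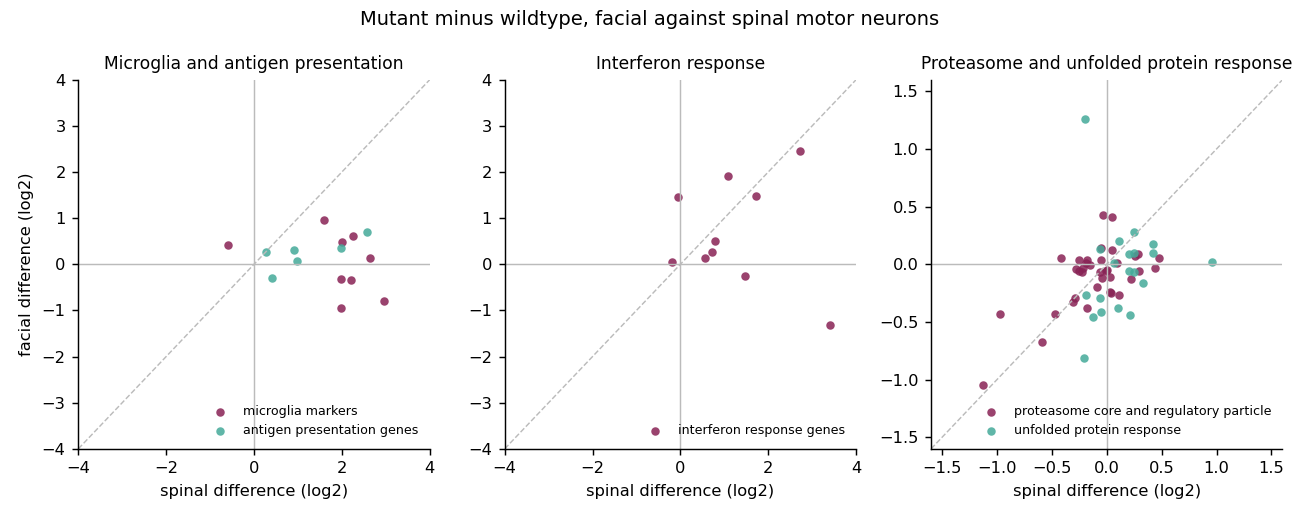
Mutant minus wildtype differences (log2 scale) of list members in spinal motor neurons (x axis) and facial motor neurons (y axis); each point is a gene tested in the facial comparison and the dashed line marks equal differences. Microglia markers spread along the spinal axis, with medians of 1.98 in spinal and 0.14 in facial neurons, while proteasome and unfolded protein response genes lie near 0 at both sites apart from single genes.

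Against ventral cord tissue, 5 of 10916 genes differed in genotype effect (0.0458%, limma interaction over 12 arrays), all 5 lower in facial neurons, and 1755 had an unadjusted p under 0.05 (16.1%). Cdkn1c, a cyclin-dependent kinase inhibitor, was at 9.28, 10.20 and 9.88 in wildtype and at 6.59, 6.09 and 6.43 in mutant facial arrays, and its tissue means were 12.38 and 12.52. The fitted interaction was -3.55 ± 0.35 (adjusted p = 0.00141). Igfbp3, a binding protein of insulin-like growth factors, was at 8.69, 10.04 and 9.65 against 5.45, 6.14 and 4.34, with a fitted interaction of -4.65 (adjusted p = 0.0269). Both had all mutant facial arrays below background and entered the fit through their level in tissue, not passing the filter of the facial comparison alone. Their mutant levels were therefore not measured, the sizes and p-values rest on values in background, and no fold is given. Prrg1, Prpf4b and Fam120a, described above, had interactions of -2.21, -1.52 and -1.08, each with an adjusted p of 0.0453. The count moved with single facial arrays: it was 1 without wildtype replicate 3, 201 without wildtype replicate 1, 41 without wildtype replicate 2, 32 without mutant replicate 1, 731 without mutant replicate 2 and 14 without mutant replicate 3. Without any 1 of the 6 tissue arrays it was 1 or 2.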

How the data were processed

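The authors deposited intensities, 1 linear value per probe set and array, for 18 arrays; the 2% trimmed mean is 2500 on each, and the upstream steps are not given in the sources used here. Of 45101 probe sets, 34945 have 1 gene symbol, 932 several and 9160 none, and 64 are controls; 34741 single symbols are in the RefSeq table (GRCm38.p6), which also gave the promoters. Intensities plus a pseudocount of 16 were log2 transformed and quantile normalized over the 18 arrays. The probe set with the highest mean stood for a gene, and genes under the 40th percentile of mean over the arrays of a fit were left out of it. limma 3.58.1 (R 4.3.3; lmFit and eBayes with a trend) gave two-sided p-values, adjusted by Benjamini-Hochberg, with a threshold of 0.05; interactions with spinal motor neurons and with tissue used 12 arrays each. The fits were tested on simulated data.

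Named genes were Sod1, the genes past the threshold, up to 15 of smallest p and 8 of largest difference in each direction with groups apart, and in 34 gene lists the members with the smallest p; other names are said to be chosen after their values were seen or serve as label checks. The members and lists were chosen with earlier results of these data known. Alternatives were other scalings, pseudocounts, filters, probe sets and models, the replicate block, the actin ratio as covariate and leaving out each array. List counts without wildtype replicate 3 and without mutant replicate 2 were added after seeing the data.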

Additional observations from a re-analysis of the deposited data

Results flagged for a closer look

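In 5 genes the genotype effect in facial motor neurons differed from that in ventral cord tissue by the interaction test (limma, adjusted p under 0.05), all with the lower effect in facial motor neurons. The difference between the effects was -3.55 for Cdkn1c, -4.65 for Igfbp3, -2.21 for Prrg1, -1.52 for Prpf4b and -1.08 for Fam120a (log2 scale). Cdkn1c and Igfbp3 passed the filter only through their level in tissue, and all their mutant facial arrays were below background, so the sizes and p-values of these 2 rest on levels that were not measured.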

How the results depend on the processing

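Of genes past the threshold in the facial comparison there were 0, and also 0 under the other scalings, pseudocounts, filter settings and models run, except that the filter at the 60th percentile gave 1, all 18 arrays in one fit 285, the 12 motor neuron arrays in one fit 14 and array weights 732. Leaving out single arrays gave 0 to 380. For the interaction with spinal motor neurons the count of 0 became 1 with no mean-variance trend and 26 with all 18 arrays, and 0 to 3 without single arrays. For the interaction with tissue the count of 5 became 14 at a common median of the deposited values, 1 with pseudocount 1, 8 with pseudocount 64, 17 with the filter at the 60th percentile, 12 with no trend, 0 with all 18 arrays, 2229 with array weights, 34 with the actin covariate and 44 over every probe set, and 1 to 731 without single arrays. At the common median the interaction genes with an unadjusted p under 0.05 were higher in facial neurons for 66.7%, against 57% as reported, and 58% against 51.6% for spinal motor neurons. The cause of these shifts was not tested.

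Same-numbered wildtype and mutant arrays had correlated deviations of 0.12, 0.12 and 0.03, so the numbers were not taken to pair the samples. With the replicate number as a block, 1 gene passed in the facial comparison, 0 in the interaction with spinal motor neurons and 5 in that with tissue. Of those 5, 1 was higher and 4 were lower in facial neurons, whereas the reported 5 were all lower.

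List medians moved at the common median to 0.01 for motor neuron markers, 0.05 for axon injury genes, 0.11 for autophagy, -0.12 for the respiratory chain, 0.00 for glycolysis, -0.02 for antioxidant genes and -0.09 for translation factors. With the filter at the 60th percentile they moved to 0.01 for interferon genes, -0.11 for transmitter receptors and 0.18 for apoptosis genes. Without single arrays the medians ran from 0.11 to 0.73 for branchial factors, -0.61 to 0.28 for microglia markers, 0.12 to 0.57 for immediate early genes, 0.18 to 1.11 for interferon genes, 0.02 to 0.13 for axon injury genes, 0.12 to 0.24 for heat shock chaperones, -0.09 to 0.01 for the unfolded protein response, -0.13 to -0.02 for the proteasome, 0.09 to 0.17 for autophagy, 0.01 to 0.18 for axonal transport, 0.04 to 0.28 for synaptic genes, -0.08 to 0.19 for channels, -0.15 to 0.15 for receptors, 0.00 to 0.29 for apoptosis genes, -0.14 to -0.06 for cholesterol synthesis, -0.05 to 0.14 for ALS genes, -0.03 to 0.06 for splicing factors, -0.11 to 0.04 for translation factors and 0.04 to 0.22 for tubulins. With the actin covariate Tns1 turned to -0.06, Hspd1 to 0.00, Gabarapl1 to -0.03, Snap25 to -0.05 and Vamp1 to -0.04.

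With 3 arrays a genotype the number of arrays limits the precision, and levels under 8.79 lie in background.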
